A study of Sus scrofa with 4 samples.

Results

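The Hedgehog reception and response genes were examined in pig induced pluripotent stem cells, made by returning body cells to an embryo-like state. The group holds 10 genes, DISP1, DISP3, PTCH1, GAS1, BOC, CDON, SMO, GLI1, GLI2 and GLI3, of the 16026 genes in the deposited table. They were found there by gene symbol, and the set was selected on the expression values of DISP3, which differed between the groups, so the knockdown against control values of its members are a description of these libraries and support nothing further. The cells came from the Bamei black pig, labelled with a development stage of 26.5 days throughout. Each of the 2 groups had 2 libraries: control cells, which the labels call Negative Control, and cells with short hairpin RNA against LIN28A, which they call shLin28a and which are called knockdown here. The libraries are named control 1, control 2, knockdown 1 and knockdown 2, with numbers that only name a library. Whether both knockdown libraries carry 1 hairpin or 2 different ones is not clear from the labels, so their SDs and SEs, and the values without either of them, may span hairpins. The labels leave out the hairpin sequence, its vector or promoter, or whether the libraries of a group were separate cultures, so p-values cover only library-to-library spread, which could be technical.

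Hedgehog ligands are secreted lipid-modified proteins, and DISP1 releases them from the cells that make them. In receiving cells PTCH1 holds SMO inactive until a ligand binds PTCH1, with GAS1, BOC and CDON as co-receptors. Active SMO acts at the primary cilium on the GLI transcription factors. GLI2 is the main activator, GLI3 acts largely as a repressor, and GLI1, PTCH1 and HHIP are themselves transcribed in response, so their RNA is widely read as a record of pathway output. In the neural tube the pathway patterns the ventral side. DISP3 shares the membrane architecture of DISP1 and PTCH1, including a sterol-sensing domain, and in mouse it has been tied to the proliferation of neural progenitors. GAS1, BOC and CDON transcripts are lowered by Hedgehog signalling in the mouse embryo.

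Sequencing depth differed 4.93-fold, from 11847343 summed counts in control 1 to 2400985 in knockdown 2. LIN28A, the targeted gene, was at 32.6 and 17.2 FPKM (fragments per kilobase, a level corrected for gene length and library size) in control 1 and 2, and at 3.14 and 2.58 FPKM in knockdown 1 and 2. For LIN28A the edgeR log2 fold change was −2.92 ± 0.49 (SE; adjusted p 0.259), and DESeq2 gave an adjusted p of 0.00855. Of the markers that define the labelled cell type, POU5F1 was at 16.6 to 43.4 FPKM and SOX2 at 53.5 to 109 FPKM over the 4 libraries, while both entries for NANOG were at or below 0.70 FPKM. Summed over 22 fibroblast marker genes, FPKM was 1056 to 1492 in the controls, 1134 in knockdown 1 and 2803 in knockdown 2. Most of this sum was VIM, at 791 and 959 FPKM in control 1 and 2, and at 735 and 1503 FPKM in knockdown 1 and 2. The 18 tested fibroblast markers had a median log2 fold change of 1.21, and relative to the control mean the median lay at −0.18 for knockdown 1 but 1.98 for knockdown 2. On log2 CPM their groups did not overlap for 3 higher and 1 lower, beside 18.8% and 22.9% of all tested genes. COL1A1, a fibrillar collagen, was at 17.55 and 52.8 FPKM in control 1 and 2, 56.5 in knockdown 1 and 206 in knockdown 2, while DCN was at 0 in both knockdown libraries and LUM at 0 in all but knockdown 1. The 18 neural markers summed to 416 to 544 FPKM in the controls, 824 in knockdown 1 and 413 in knockdown 2, with SOX1 at 0 in every library. By gene, the 16 tested neural markers had a median log2 fold change of 0.40. Their groups did not overlap on log2 CPM for 8 higher and 1 lower, beside 18.8% and 22.9% of all tested genes. The median relative to the control mean lay at 0.64 for knockdown 1 and 0.11 for knockdown 2. DCX, a microtubule protein of young neurons, stood at 7.14 and 6.09 FPKM in the controls, against 22.2 and 10.4 FPKM in the knockdown. The 9 pluripotency genes in the table summed to 189 to 230 FPKM in the controls, 194 in knockdown 1 and 102 in knockdown 2. That sum includes LIN28A, the targeted gene. By gene, the 7 tested had a median log2 fold change of −0.29. On log2 CPM the groups did not overlap for 3 lower, LIN28A among them, and 1 higher, beside 22.9% and 18.8% of all tested genes. Relative to the control mean their median lay at 0.01 for knockdown 1 and −0.79 for knockdown 2. The 7 blood cell markers summed to 4.54 to 4.86 FPKM in the controls, 4.13 in knockdown 1 and 13.5 in knockdown 2. In knockdown 2 SPI1 was at 6.23, CORO1A at 4.29 and LAPTM5 at 1.75 FPKM, each above every other library. CD74 was at 1.12 FPKM there, below both controls, and FCER1G and TYROBP were at 0 in both knockdown libraries. PTPRC was at or below 0.08 FPKM in every library. The part of these cell type differences in the values given here was not tested. In bulk RNA, fewer cells that express a gene and less of its RNA per cell cannot be told apart.

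In the control cells SMO had the highest level of the 10 genes at 70.9 ± 3.47 FPKM (SD, n = 2), followed by BOC at 54.6 ± 8.65, GLI3 at 26.7 ± 2.12 and CDON at 20.3 ± 2.64. PTCH1 came next at 10.1 ± 0.651 FPKM, then GAS1 at 8.45 ± 1.45, GLI2 at 8.41 ± 0.0495, DISP1 at 5.77 ± 0.318, DISP3 at 2.48 ± 0.495 and GLI1 at 1.36 ± 0.453. Of neighbours in this order, only GAS1 and GLI2 had control libraries that overlapped. RNA for SMO, for GAS1, BOC and CDON and for each GLI factor was thus detected in every library. Among the ligands, DHH had 2 counts in control 1, 1 in knockdown 1 and 0 in the other libraries, so it was near the limit of detection, where 3 counts correspond to between 0.253 and 1.25 CPM (counts corrected for library size alone). SHH and IHH were not analysed here. In the knockdown libraries DISP3 stood at 10.6 ± 2.64 FPKM, above PTCH1 at 5.63 ± 0.382.

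**Figure D1:**
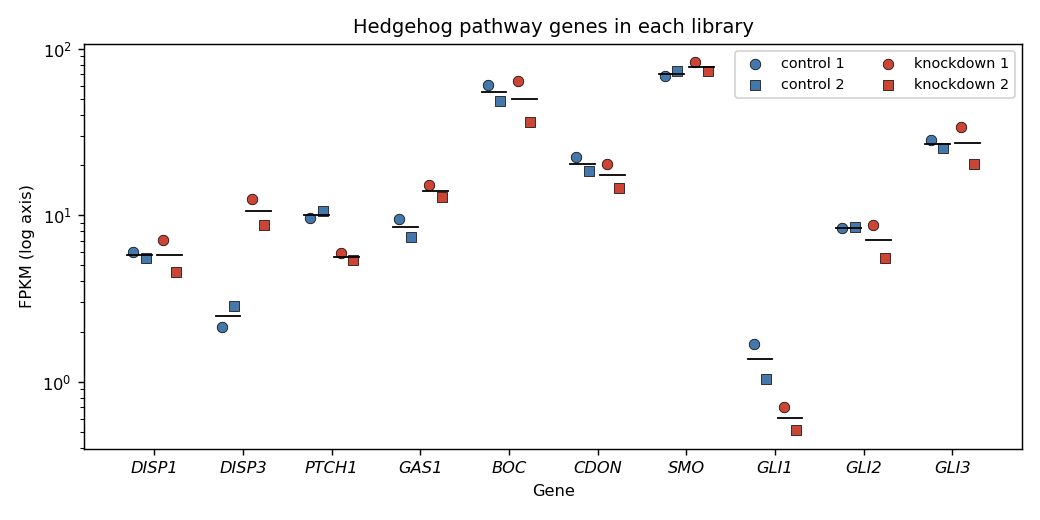
FPKM of the 10 genes (log axis) in each library, blue for control and red for knockdown, circles for library 1 and squares for library 2, with a bar at the mean of each group. DISP3 and GAS1 lie higher and PTCH1 and GLI1 lower in each knockdown library than in either control, while the groups overlap for the other 6 genes.

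Across all 11967 genes with enough counts to be tested, 0% were called at an adjusted p under 0.05 by edgeR, and none of the 10 members was called. At an unadjusted p under 0.05, 7.71% of all tested genes passed, and DISP3, GAS1 and PTCH1 did among the members. DESeq2 called 1.16% of all tested genes and 1 member, DISP3. All 10 members passed the filter on low counts. Their log2 fold changes ran from −0.91 to 2.30 with a median of 0.12, beside 0.01 for all tested genes, and 6 were positive. On log2 CPM the groups did not overlap for 6 members, 4 higher and 2 lower in the knockdown, where this held for 41.7% of all tested genes. On FPKM it held for 4 members, DISP3, GAS1, PTCH1 and GLI1, and for 39.2% of all tested genes. Since the same contrast chose the set, nothing is read from these counts.

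DISP3, on chromosome 6 at 71583818 to 71640945 of Sscrofa11.1, had the highest fold change in the group. Its counts were 134 and 107 in control 1 and 2, but 531 and 111 in knockdown 1 and 2, although knockdown 2 is the shallowest library. Its level was 2.13 and 2.83 FPKM in the controls and 12.5 and 8.76 FPKM in the knockdown libraries, a 4.29-fold ratio of the group means. Both knockdown libraries lay far above both controls, and the counting intervals did not meet: 46.2 CPM (95% exact Poisson interval 38.0 to 55.7) in knockdown 2 against 15.02 CPM (12.3 to 18.1) in control 2. The log2 fold change was 2.30 ± 0.24 (SE), with an edgeR p of 0.000157 before and 0.179 after adjustment over all genes. That p was rank 8 among the 11967 tested genes. The DESeq2 adjusted p was 6.25e-07. Relative to the control mean, the difference in log2 CPM was 2.33 in knockdown 1 and 2.24 in knockdown 2. Without knockdown 2 the log2 fold change was 2.32, and the lowest value without any one library was 2.08.

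DISP1, the transporter that releases Hedgehog ligands, lies on chromosome 10 at 11526353 to 11709888. It was at 5.99 and 5.54 FPKM in control 1 and 2, and at 7.05 and 4.54 FPKM in knockdown 1 and 2. The knockdown libraries lay on either side of the controls on this scale. Its log2 fold change was 0.20 ± 0.21 (SE), with an edgeR adjusted p of 0.724, and it turned negative on log2 FPKM. The ratio of DISP3 to DISP1 within a library, which does not depend on scaling between libraries, was 0.356 and 0.511 in the controls against 1.77 and 1.93 in the knockdown. By FPKM, DISP3 was the lower of the pair in both controls and the higher in both knockdown libraries. DISP2, the remaining Dispatched gene, had at most 12.98 counts in a library and was not tested.

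PTCH1, the Hedgehog receptor and a target of its own pathway, lies on chromosome 10 at 26627165 to 26703225. It was at 9.63 and 10.6 FPKM in control 1 and 2, and at 5.90 and 5.36 FPKM in knockdown 1 and 2. Both knockdown libraries were lower than both controls, and the libraries of each group lay close together. Knockdown over control, the log2 fold change was −0.59 ± 0.21 (SE), with an edgeR p of 0.0368 before and 0.606 after adjustment, and a DESeq2 adjusted p of 0.710. It stayed negative in all 12 settings, between −0.83 and −0.44. Without knockdown 2 it was −0.75, with an adjusted p of 0.313. A long noncoding RNA gene overlaps PTCH1 in the annotation, and the strand setting of the counts is not given in the sources used here.

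Among the co-receptors, only GAS1 had groups that did not overlap. GAS1, a membrane-anchored co-receptor on chromosome 10 at 28509168 to 28511554, was at 9.47 and 7.42 FPKM in control 1 and 2, and at 15.1 and 12.9 FPKM in knockdown 1 and 2. Both knockdown libraries were higher than both controls. The log2 fold change was 0.95 ± 0.23 (SE), with an edgeR p of 0.00749 before and 0.390 after adjustment, and it ranged from 0.67 to 1.11 over the 12 settings. BOC, an immunoglobulin-family co-receptor on chromosome 13 at 146625218 to 146703165, stood at 60.7 and 48.5 FPKM in the controls, against 64.0 and 36.2 FPKM in knockdown 1 and 2. CDON, its close relative on chromosome 9 at 53079543 to 53178881, stood at 22.2 and 18.5 FPKM in the controls, against 20.2 and 14.6 FPKM in the knockdown. For BOC and CDON the groups overlapped on FPKM and on log2 CPM. The log2 fold change of BOC was 0.03 ± 0.29 (SE) and that of CDON −0.02 ± 0.22 (SE), with edgeR adjusted p of 0.976 and 0.983, and both changed sign with other scalings. The ratio of GAS1 to BOC within a library was 0.156 and 0.153 in the controls, 0.236 in knockdown 1 and 0.357 in knockdown 2. The counts of BOC are the only ones among the members that are not whole, so some of its reads were divided with other genes, and its annotated span overlaps that of CFAP44.

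SMO, the transducer, lies on chromosome 18 at 19450730 to 19478796. It was at 68.5 and 73.4 FPKM in control 1 and 2, and at 82.7 and 73.3 FPKM in knockdown 1 and 2. The groups overlapped on FPKM, but on log2 CPM both knockdown libraries were above both controls. For SMO the log2 fold change was 0.37 ± 0.24 (SE), with an edgeR adjusted p of 0.631. Set against SMO, the level of its inhibitor PTCH1 was 0.141 and 0.144 in the controls, and 0.0713 and 0.0731 in knockdown 1 and 2. The libraries of a group hardly differed in this ratio.

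**Figure D2:**
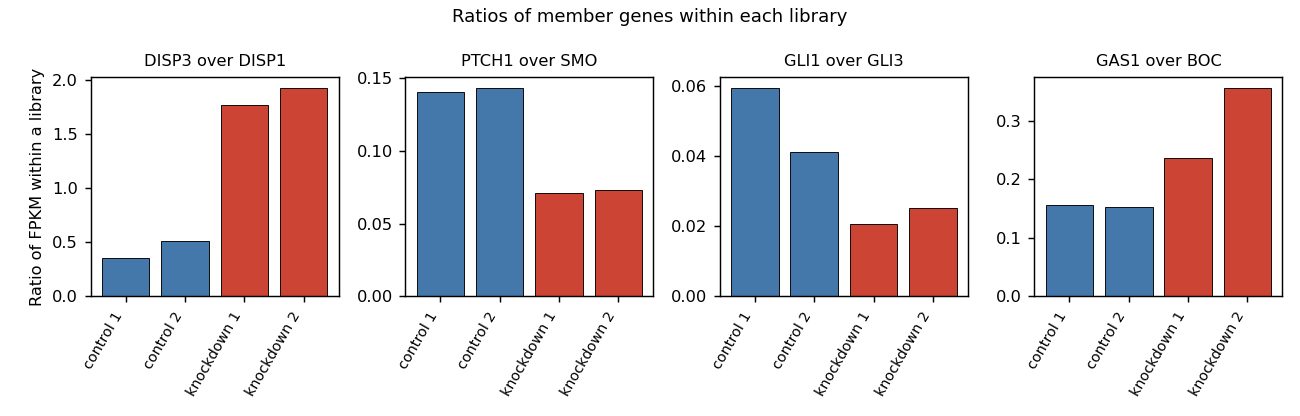
Ratios of FPKM between pairs of member genes within each library, with 1 bar per library, blue for control and red for knockdown, and axes that start at 0. The ratio of PTCH1 to SMO is 0.141 and 0.144 in the controls against 0.0713 and 0.0731 in the knockdown, and that of DISP3 to DISP1 is 0.356 and 0.511 against 1.77 and 1.93.

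GLI1, the GLI factor that is itself a target of the pathway, lies on chromosome 5 at 22736325 to 22747421 and was the least abundant member in the controls. It counted 74 and 28 in control 1 and 2, but 21 and 5 in knockdown 1 and 2. These gave 1.68 and 1.04 FPKM in the controls, and 0.70 and 0.51 FPKM in the knockdown. Both knockdown libraries were below both controls, but the counting intervals of knockdown 1 (1.61 to 3.98 CPM) and knockdown 2 (0.676 to 4.86 CPM) overlapped that of control 2 (2.61 to 5.68 CPM). For GLI1 the log2 fold change was −0.91 ± 0.45 (SE), with an edgeR p of 0.0953 before and 0.606 after adjustment. It was −0.98 without knockdown 2 and −0.56 without control 1, the library with the highest count. The end of GLI1 overlaps ARHGAP9 by 76 bases, and the log2 fold change of ARHGAP9 was 1.05 ± 0.35 (SE; edgeR adjusted p 0.574).

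GLI2, the main activator, lies on chromosome 15 at 30312528 to 30580272. It was at 8.38 and 8.45 FPKM in control 1 and 2, and at 8.73 and 5.52 FPKM in knockdown 1 and 2. GLI3, on chromosome 18 at 52403463 to 52697906, stood at 28.2 and 25.2 FPKM in the controls, against 34.04 and 20.3 FPKM in the knockdown. For both genes knockdown 1 lay above and knockdown 2 below the controls on FPKM. On log2 CPM this held for GLI2 only. There GLI3 in knockdown 2 (7.76) lay between control 2 (7.66) and control 1 (7.78). The log2 fold change was −0.05 ± 0.20 (SE) for GLI2 and 0.21 ± 0.25 (SE) for GLI3, with edgeR adjusted p of 0.934 and 0.764. The sign turned without knockdown 2 for GLI2 and on log2 FPKM for GLI3. The ratio of GLI1 to GLI3 was 0.0595 and 0.0412 in the controls against 0.0206 and 0.0252 in the knockdown. RNA levels do not show how much GLI3 protein was processed to its repressor form.

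**Figure D3:**
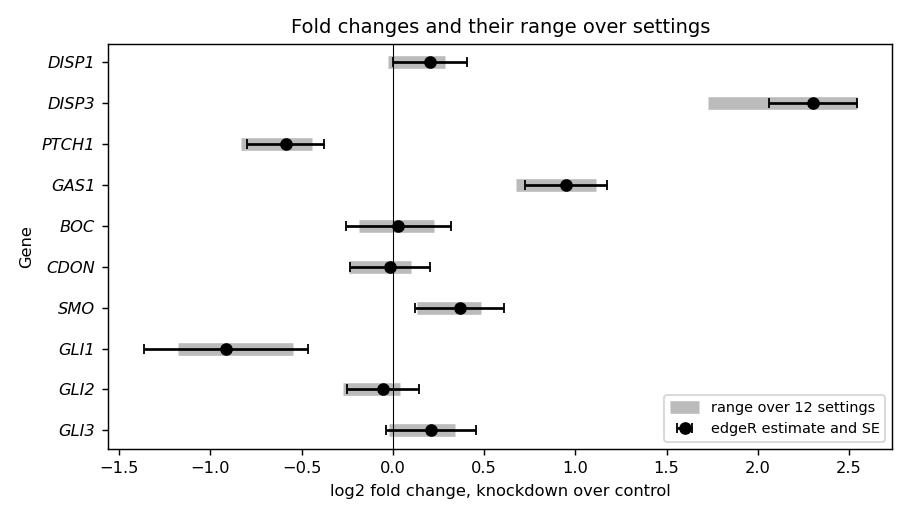
Log2 fold change of each member, knockdown over control, with the edgeR estimate and its SE (points and bars) and the range over 12 settings of normalization, filter, test and left-out library (grey). DISP3 (1.73 to 2.54), GAS1 (0.67 to 1.11) and SMO (0.13 to 0.48) stay above 0 and PTCH1 (−0.83 to −0.44) and GLI1 (−1.18 to −0.55) below it, while the grey ranges of the other 5 genes cross 0.

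Other pathway genes were taken from a list of 46, of which 43 had a row and 40 were tested. None was called by edgeR or DESeq2 over all genes. At an unadjusted p under 0.05, 3 were higher and 1 was lower, where 4.26% of all tested genes were higher and 3.45% lower. The groups did not overlap for 12 that were higher and 9 that were lower, beside 18.8% and 22.9% of all tested genes. The median log2 fold change was 0.10, with 25 positive and 15 negative.

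The 4 genes below an unadjusted p of 0.05 were mainly proteins that bind the ligand. HHIP, a membrane protein that traps Hedgehog ligands and is induced by the pathway, was at 0.65 and 0.44 FPKM in control 1 and 2, and at 0.26 and 0.21 FPKM in knockdown 1 and 2. Both knockdown libraries were lower, on 68, 28, 17 and 4 counts, and the log2 fold change was −1.15 ± 0.45 (SE; edgeR p 0.0493, adjusted 0.606). GPC4, a cell surface glypican, stood at 33.3 and 31.4 FPKM in the controls, against 56.2 and 40.1 FPKM in the knockdown; the log2 fold change was 0.78 ± 0.22 (SE; edgeR adjusted p 0.524). GPC3, a glypican that in mouse competes with PTCH1 for ligand, was at 2.86 and 3.50 FPKM in the controls, 5.33 in knockdown 1 and 12.7 in knockdown 2. Its log2 fold change was 1.75 ± 0.59 (SE; edgeR adjusted p 0.586), and 0.74 without knockdown 2. PRKAR1A, a regulatory subunit of the protein kinase A that restrains GLI factors, stood at 146 and 172 FPKM in the controls, against 218 and 311 FPKM in the knockdown. Its log2 fold change was 0.84 ± 0.31 (SE; edgeR adjusted p 0.606), and 0.51 without knockdown 2.

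By role, the genes of GLI restraint and processing had a median log2 fold change of 0.31 over 16 tested, with 12 positive. Relative to the control mean the median lay at 0.14 for knockdown 1 and 0.48 for knockdown 2. The genes of ciliary transduction had a median of 0.01 over 14, with 7 positive. ARRB2, an arrestin and the most abundant gene of the ciliary group, stood at 67.1 and 55.5 FPKM in the controls, against 70.0 and 37.9 FPKM in the knockdown. ADAM17, a shedding protease and the most abundant of the release group, was at 23.2 and 23.6 FPKM against 23.8 and 28.2 FPKM. For both of these the groups overlapped.

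Genes known as targets of the pathway did not share a direction. Beside PTCH1 and GLI1, 12 of 23 listed targets were tested, with a log2 fold change above 0 in 9, below 0 in 3 and a median of 0.53. None was called, and 2 were higher and 1 lower at an unadjusted p under 0.05, beside 4.26% and 3.45% of all tested genes. The groups did not overlap for 7 that were higher and 1 that was lower, beside 18.8% and 22.9% of all tested genes. The one that was lower at that p was HHIP. FOXC1, a forkhead factor of mesenchyme, was at 1.08 and 0.58 FPKM in control 1 and 2, and at 1.66 and 1.88 FPKM in the knockdown (log2 fold change 1.27 ± 0.49, SE; edgeR adjusted p 0.606). TBX2, a T-box factor, was at 0.19 and 0.21 FPKM in the controls, on 6 and 4 counts, and at 0.52 and 0.95 FPKM in the knockdown (log2 fold change 1.94 ± 0.73, SE; edgeR adjusted p 0.606). CCND2, a D-type cyclin and the most abundant target, was at 62.1 and 87.2 FPKM against 87.9 and 58.6 FPKM, and the groups overlapped. Of the ventral neural tube factors, NKX2-2 and NKX6-1 did not exceed 0.17 FPKM in any library.

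**Figure D4:**
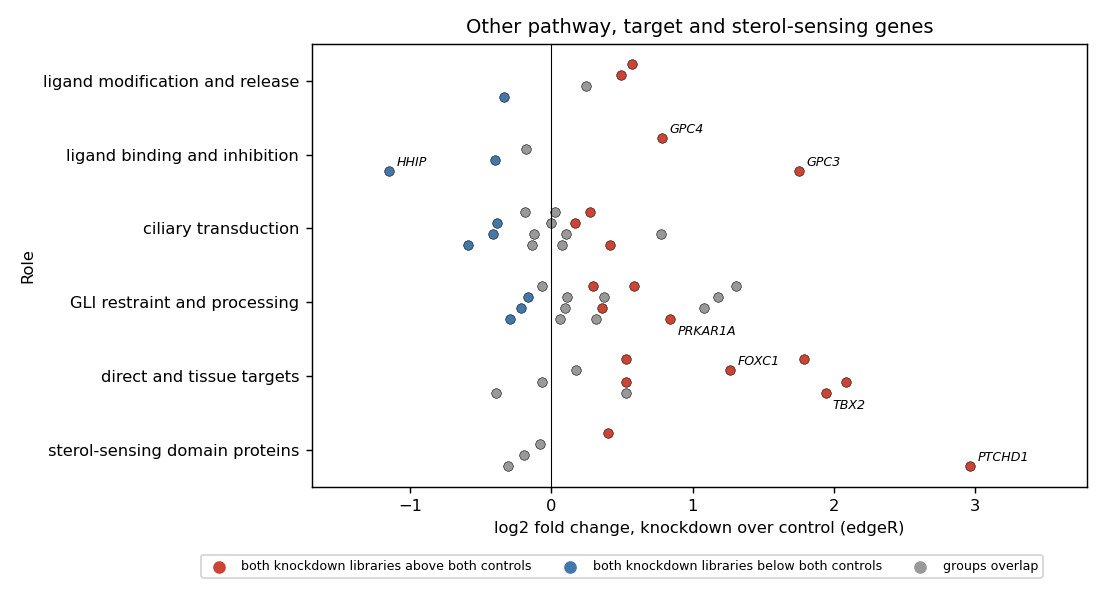
Log2 fold change (knockdown over control, edgeR) of tested genes outside the 10 members, 1 point per gene, by role. Red and blue points mark genes whose knockdown libraries both lie above or both below the controls on log2 CPM, and names mark an unadjusted p under 0.05: HHIP at −1.15 on the left, PTCHD1 at 2.97 farthest right.

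Proteins with a sterol-sensing domain like that of PTCH1 and the Dispatched proteins, or that handle sterols, were listed apart, and 6 of 8 were tested. PTCHD1, a Patched-domain protein of neurons, was at 0.28 and 0.20 FPKM in control 1 and 2, and at 1.89 and 1.46 FPKM in knockdown 1 and 2. Both knockdown libraries were well above both controls, on 21, 9, 95 and 22 counts. For PTCHD1 the log2 fold change was 2.97 ± 0.38 (SE; edgeR adjusted p 0.219), and the DESeq2 adjusted p was 0.000117. SCAP, NPC1, DHCR7 and PTCHD3 had log2 fold changes between −0.31 and 0.40.

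The 5 genes whose pattern over the 4 libraries was most like that of DISP3, among 4338 tested genes of similar abundance, were CAMK2A, NEUROD4, ST8SIA1, BCL11A and MASP1. Likeness was the Euclidean distance between centred log2 CPM values, which ran from 0.297 for CAMK2A to 0.506 for MASP1. CAMK2A, a calmodulin-dependent kinase of neurons, stood at 1.62 and 1.84 FPKM in the controls, against 7.25 and 5.94 FPKM in the knockdown. NEUROD4, a proneural transcription factor, was at 2.08 and 2.79 FPKM against 10.03 and 9.38 FPKM. ST8SIA1, the sialyltransferase that makes ganglioside GD3, was at 1.59 and 2.38 FPKM against 7.25 and 5.78 FPKM. BCL11A, a zinc finger factor, was at 2.86 and 3.8 FPKM against 26.1 and 14.4 FPKM. MASP1, a complement protease, was at 2.72 and 4.17 FPKM against 9.62 and 11.98 FPKM. With 4 libraries such likeness is shared by any gene that is higher in both knockdown libraries to a like extent.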

How the data were processed

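Polyadenylated RNA of 4 libraries was sequenced on a BGISEQ-500, per the labels' protocols. The submitters' processing notes name Bowtie2, RSEM 1.2.12 and the genome build Sscrofa11.1. The deposited table holds expected counts, estimated by the authors and not normalised between libraries, and a second set of values by the authors read here as FPKM. The header does not name that unit. It was inferred because the ratio of count to value scaled with the library total (0.197 against 0.203 for knockdown 2 relative to control 1). All 16026 gene identifiers matched RefSeq for Sscrofa11.1, which gave positions and restored 22 symbols stored as dates.

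Counts were rounded and tested in edgeR 4.0.16 (R 4.3.3) with TMM factors (1.10, 1.07, 1.07 and 0.798), filterByExpr and the quasi-likelihood test, with Benjamini-Hochberg adjustment over all 11967 tested genes and a threshold of 0.05. The fit has 2 residual degrees of freedom. SDs and SEs rest on 2 libraries a group. Log2 CPM used a prior count of 2. Alternatives used DESeq2 1.42.0 and limma 3.58.1. The 95% exact Poisson intervals cover no error beyond counting, as molecular identifiers are not named. The members and all gene lists were chosen with earlier results of these data known. Named genes are all members and LIN28A, list genes with an unadjusted p under 0.05, ligands, the most abundant gene of each role and the 5 genes most like DISP3 within 1 log2 CPM of its mean. Further genes named by role or as cell type markers were chosen after their values were seen. Some listed genes are counted but not reported singly here.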

Additional observations from a re-analysis of the deposited data

How the results depend on the processing

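DISP3, GAS1, PTCH1, GLI1 and SMO kept their direction in all 11 alternatives. DISP3 was called with every gene of at least 1 count (edgeR adjusted p 0.0230) and in DESeq2. The cause of these differences was not tested. Calls over all genes, 0 in either direction in edgeR, were 2 higher and 6 lower with library totals. With every gene of at least 1 count they were 28 and 12 of 15643 tested. DESeq2 gave 104 and 35 of 11967. In limma they were 0 and 1 on log2(FPKM + 1), and 1 and 1 on log2(FPKM + 0.1). Leaving out 1 library in turn gave 0 to 1110 higher and 0 to 94 lower, both highest without knockdown 1, where 1 library stands for the knockdown and is assumed to vary like the controls; 0 to 1 members and 0 to 7 of the pathway list were then called, the 7 being SPOP, GSK3A, CUL3, PRKAR1A, GPC3, CSNK1A1 and GPC6. Of members, 1 was called with every gene of at least 1 count and 1 in DESeq2. Library totals moved the median of all genes from 0.01 to −0.18; relative to it DISP3 was at 2.28, GAS1 at 0.91, PTCH1 at −0.63 and GLI1 at −0.91.

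Members near 0 changed sign. BOC was at −0.066 with upper-quartile factors, −0.15 with library totals, and −0.17 and −0.17 on log2(FPKM + 1) and log2(FPKM + 0.1), CDON at 0.0097 with DESeq2 size factors and 0.0091 in DESeq2, DISP1 at −0.018 and −0.025 and GLI3 at −0.021 and −0.023 on the log2 FPKM scales. ARRB2 was at 0.018 with DESeq2 size factors and 0.020 in DESeq2, and CCND2 at −0.021 with library totals and −0.036 and −0.037 on the log2 FPKM scales. Without 1 library in turn BOC ranged from −0.19 to 0.23, CDON from −0.12 to 0.10, GLI2 from −0.19 to 0.038, ADAM17 from −0.025 to 0.46, ARRB2 from −0.26 to 0.18 and CCND2 from −0.077 to 0.47. The settings for genes outside the members were added after seeing the data. No paired analysis was possible because the labels give no number that ties a knockdown library to a control. Depth limits LIN28A, HHIP and GLI1, with 3, 4 and 5 counts in knockdown 2.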

Other observations

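The floor plate is the ventral source of Hedgehog ligand in the neural tube, and 6 of 8 of its listed markers had a row. Summed over them, FPKM was 7.64 and 18.3 in control 1 and 2, but 31.8 and 59.7 in knockdown 1 and 2. Nearly all of this came from SPON1, an extracellular matrix protein, and NTN1, an axon guidance cue. SPON1 stood at 6.23 and 10.3 FPKM in the controls and at 26.0 and 25.02 FPKM in the knockdown, and its log2 fold change was 1.86 ± 0.34 (SE; edgeR adjusted p 0.278). NTN1 stood at 1.2 and 7.61 FPKM in the controls but 5.51 FPKM in knockdown 1 and 34.3 FPKM in knockdown 2, so its groups overlapped. LMX1A, FERD3L and CORIN did not exceed 0.19 FPKM in any library.

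DISP3 lies 12165 kb from LIN28A on chromosome 6. Of its annotated protein-coding neighbours, MTOR on one side stood at 16.3 and 14.6 FPKM in the controls, against 14.97 and 10.4 FPKM in the knockdown. FBXO2 on the other side was at 1.44 and 1.43 FPKM against 2.86 and 2.12 FPKM; its log2 fold change was 1.00 ± 0.45 (SE; edgeR adjusted p 0.606), on 20, 12, 27 and 6 counts. FBXO44 and FBXO6 beyond it had log2 fold changes of −0.02 and 0.38. None of these neighbours was called. They were examined after the value of DISP3 was known.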
